A study of Mus musculus with 23 samples.

Results

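The postsynaptic density is the protein layer under the membrane of an excitatory synapse, where scaffold proteins hold glutamate receptors, adhesion molecules and signalling enzymes in place. Of its genes, 9 (Prr7, Camk2a, Shank1, Shank2, Shank3, Dlg4, Homer1, Dlgap1 and Dlgap3) were followed here among the 55487 gene IDs of each count table. The 9 genes were chosen by a rule that drew on the measured values, because Prr7 had the deepest fall among scaffold genes in stretched soma libraries. The stretched against control values in soma are therefore given as a description, without a test.

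Dlg4 encodes PSD-95, which binds receptor tails through its PDZ domains. Proteins of the Dlgap family (SAPAP or GKAP) link PSD-95 to the Shank proteins, and Homer proteins link Shank to metabotropic glutamate receptors. Camk2a encodes the alpha subunit of CaMKII, an abundant kinase of the postsynaptic density whose mRNA is known from dendrites. Prr7 encodes a small transmembrane adaptor that binds PSD-95 and is also known as a messenger from the synapse to the nucleus.

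Hippocampal cells of C57Bl/6 pups at postnatal day 1 were grown in microfluidic chambers, in medium with magnetic nanoparticles (MNPs) at 5 µg/ml in every group. Stretched cultures were held in a magnetic field gradient of 50 T/m from day in vitro (DIV) 1 to 6, and control cultures with MNPs in a null gradient. RNA came from the axonal side, labelled as a pure axonal preparation, or from the soma side, labelled as total cell culture. The 23 libraries comprised 12 from soma, 6 per condition, and 11 from axon, of which 5 were control and 6 stretched. The sources name no separate cultures or animals behind the replicate numbers, so p-values measure only the spread between these libraries, which may be technical.

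Depth ran from 16369153 to 43048953 gene counts per library. Soma libraries held counts for 22452 to 24575 genes and axonal libraries for 4263 to 10242. Control soma replicate 4 stood apart: the leading principal component (41% of the variance between soma libraries, 15632 genes) put it at 23.9, where stretched libraries ran from 10.1 to 32.1 and the remaining controls from -38.8 to -25.7. Eif2s3y, a Y-linked gene, also split the soma libraries into sets of 6. Scaled to a library total of 1000000 counts (CPM), it stood at 24.7 to 28.7 in control replicates 1, 2 and 3 and stretched replicates 1, 2 and 8, and at 5.39 to 13.2 in replicates 4, 5 and 6 of both conditions. No label names a batch, and each set holds 3 control and 3 stretched libraries. Summed neuron markers were 4521 to 5252 CPM in control soma, 4338 to 4833 in stretched soma and 609 to 2803 in axonal libraries, whereas summed astrocyte markers were 5011 to 13860 CPM in soma and 4501 to 25460 CPM in axonal libraries. In bulk RNA, fewer cells of a type and less RNA per cell cannot be told apart.

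Prr7 (ENSMUSG00000034686) lies at chr13:55464267-55473154 of the mouse build GRCm38, on the plus strand as do all 9 genes. Its exons cover 1359 bases and overlap no other gene's exons. The neighbouring genes are Grk6 upstream and Dbn1, encoding the spine actin-binding protein drebrin, on the opposite strand 274 bases downstream. The Shank genes lie at chr7:44310253-44360572 (Shank1), chr7:144001928-144424494 (Shank2) and chr15:89499623-89560261 (Shank3). Dlg4 lies at chr11:70016942-70047522 and Homer1 at chr13:93299635-93405129. The Dlgap genes lie at chr17:69969073-70821413 (Dlgap1) and chr4:127169204-127237022 (Dlgap3). Shank1, Shank3 and Dlgap1 each share exon bases with 1 gene on the opposite strand (1700008O03Rik, Gm15609 and AC079441.1). Whether the counting used strand is not given in the sources used here, so reads of each such pair may be mixed. Homer1 counts join its long forms and the short activity-induced Homer1a.

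The transcripts of the 9 genes differ in length and base composition. The soma values are set beside the length and GC content of the longest transcript, not of the coding sequence, further on. The first 150 coding bases are shown for Prr7, for Homer1 as the member poorest in G and C, and for Shank1 as the longest transcript, all on the plus strand of GRCm38 with GENCODE M21 exons. Capitals mark CG dinucleotides.
Prr7: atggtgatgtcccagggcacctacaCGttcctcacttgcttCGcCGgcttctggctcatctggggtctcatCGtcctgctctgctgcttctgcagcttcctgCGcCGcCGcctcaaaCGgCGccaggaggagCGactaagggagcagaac
Shank1: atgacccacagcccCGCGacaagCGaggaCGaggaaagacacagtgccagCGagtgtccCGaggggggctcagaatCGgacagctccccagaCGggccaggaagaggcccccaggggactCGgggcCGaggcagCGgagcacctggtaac
Homer1: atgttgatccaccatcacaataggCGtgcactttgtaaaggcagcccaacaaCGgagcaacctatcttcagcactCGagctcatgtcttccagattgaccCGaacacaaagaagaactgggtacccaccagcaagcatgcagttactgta
These stretches held 10 CG dinucleotides in Prr7, 11 in Shank1 and 4 in Homer1. Over the whole coding sequence, Prr7-201 (807 bases) had 69.4% GC and 10.9 CG per 100 bases. Shank1-203 (6501 bases) had 63.6% GC and 5.32 CG per 100 bases, and Homer1-202 (1110 bases) 46.5% and 1.8. Among genes of at least 1 CPM in soma, the Prr7 transcript stood at percentile 99.9 for GC content and percentile 9.1 for length.

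In soma, every member was detected in all 12 libraries. Per kilobase of exon, the control order ran from Camk2a at 49.2 ± 6.53 CPM per kb (SD, n = 6) through Prr7 at 27.4 ± 15.3 to a group of Dlgap3 (5.87 ± 1.83), Shank2 (5.70 ± 1.70), Dlg4 (4.26 ± 0.95) and Dlgap1 (3.84 ± 0.705). Neighbours within that group overlapped in mean ± SD. Shank1 (2.0 ± 0.451), Homer1 (1.04 ± 0.236) and Shank3 (0.512 ± 0.149 CPM per kb) followed, each apart from the next in mean ± SD. In stretched soma Camk2a stayed first at 42.4 ± 2.10 CPM per kb, Shank2 was next at 8.92 ± 0.9, and Prr7 stood at rank 5 with 4.35 ± 2.91, with an SD range that overlapped those of Dlgap3 and Dlgap1. Shank1, Homer1 and Shank3 kept the last 3 places, at 3.05 ± 0.516, 1.21 ± 0.224 and 0.458 ± 0.113 CPM per kb. The divisor was the union of all annotated exons, which equals the longest transcript in Prr7 (1359 bases). It far exceeds the longest transcript in Dlg4 (13251 against 6326 bases), Dlgap1 (17890 against 7173) and Homer1 (11976 against 5713). The order, ranks and gaps given here thus hold for this divisor only.

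Prr7, the adaptor, set the choice of the 9 genes. Its level in control soma had a lowest value of 15.6, a median of 33.7 and a highest of 61.0 CPM, and in stretched soma 2.12, 4.55 and 11.1 CPM. Every stretched library lay below every control library. Control replicates 1, 2 and 4 (15.6, 20.2 and 20.7 CPM) lay well under replicates 3, 5 and 6 (58.9, 46.7 and 61.0 CPM), and the coefficient of variation was 55.8% in control and 67.0% in stretched soma. Means were 37.2 ± 20.7 and 5.91 ± 3.96 CPM (SD, n = 6 each). On the log2 scale stretched minus control was -2.69 (SE 0.49), or 6.47-fold lower. Prr7 was the 1 member of 9 whose groups did not overlap, in a contrast where 4.11% of 15632 genes did not overlap.

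Camk2a, the kinase subunit, was measured with the least spread. Its CPM in control soma was lowest at 310.7, with a median of 366 and a highest value of 436, against 291, 315 and 339 in stretched soma. Control replicates 4 and 6 lay inside the stretched range, so the groups overlapped. The log2 fold change was -0.26 (SE 0.09).

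The Shank family forms the deep scaffold layer; Shank1 and Shank2 were higher in stretched soma, and Shank3 lay within the range of its controls or close below it. Shank1 was at 15.9, 20.6 and 26.8 CPM (lowest, median, highest) in control and at 25.8, 31.2 and 39.4 in stretched soma, a log2 fold change of 0.57 (SE 0.15), with control replicate 4 the only control above the lowest stretched library. Shank2 was at 41.1, 59.4 and 94.9 CPM in control and at 81.8, 98.6 and 108 in stretched soma, a log2 fold change of 0.61 (SE 0.16). For Shank2 the single overlapping control was replicate 4, the library that stood apart, at 94.9 CPM; the other 5 controls lay at 63.2 CPM or below. Shank3 was at 3.19, 4.61 and 6.37 CPM in control and at 2.96, 4.02 and 5.56 in stretched soma, with overlapping groups and a log2 fold change of -0.20 (SE 0.23). Within a library, the ratio of Shank2 to Shank3 counts was 13.5 ± 3.45 in control and 23.9 ± 5.97 in stretched soma (SD, n = 6 each). Shank3 had only 67 to 171 counts per soma library, and this ratio was not compared with those of gene pairs at large.

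Dlg4, the receptor-binding scaffold, had a lowest, median and highest value of 40.0, 56.9 and 70.3 CPM in control soma and of 57.3, 74.8 and 92.4 CPM in stretched soma. The groups overlapped over 57.3 to 70.3 CPM, and the log2 fold change was 0.37 (SE 0.16). The ratio of Prr7 to Dlg4 counts, the adaptor to its binding partner, was 0.654 ± 0.337 in control and 0.0839 ± 0.0631 in stretched soma (SD, n = 6 each). Because the choice of genes rested on the fall of Prr7, the lower ratio is no separate result.

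The linkers between Dlg4, Shank and metabotropic receptors overlapped between conditions. Homer1 was at 12.4 ± 2.82 CPM in control and 14.5 ± 2.69 in stretched soma, a log2 fold change of 0.18 (SE 0.17). Dlgap1 was at 68.6 ± 12.6 and 77.5 ± 19.2 CPM, a log2 fold change of 0.13 (SE 0.15). Dlgap3 was at 26.6 ± 8.25 and 21.4 ± 4.75 CPM, a log2 fold change of -0.36 (SE 0.20) (SD, n = 6 each for all 3 genes). The ratio of Dlgap3 to Dlgap1 counts was 0.383 ± 0.0841 in control and 0.278 ± 0.0275 in stretched soma, and was not compared with those of gene pairs at large.

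**Figure D1:**
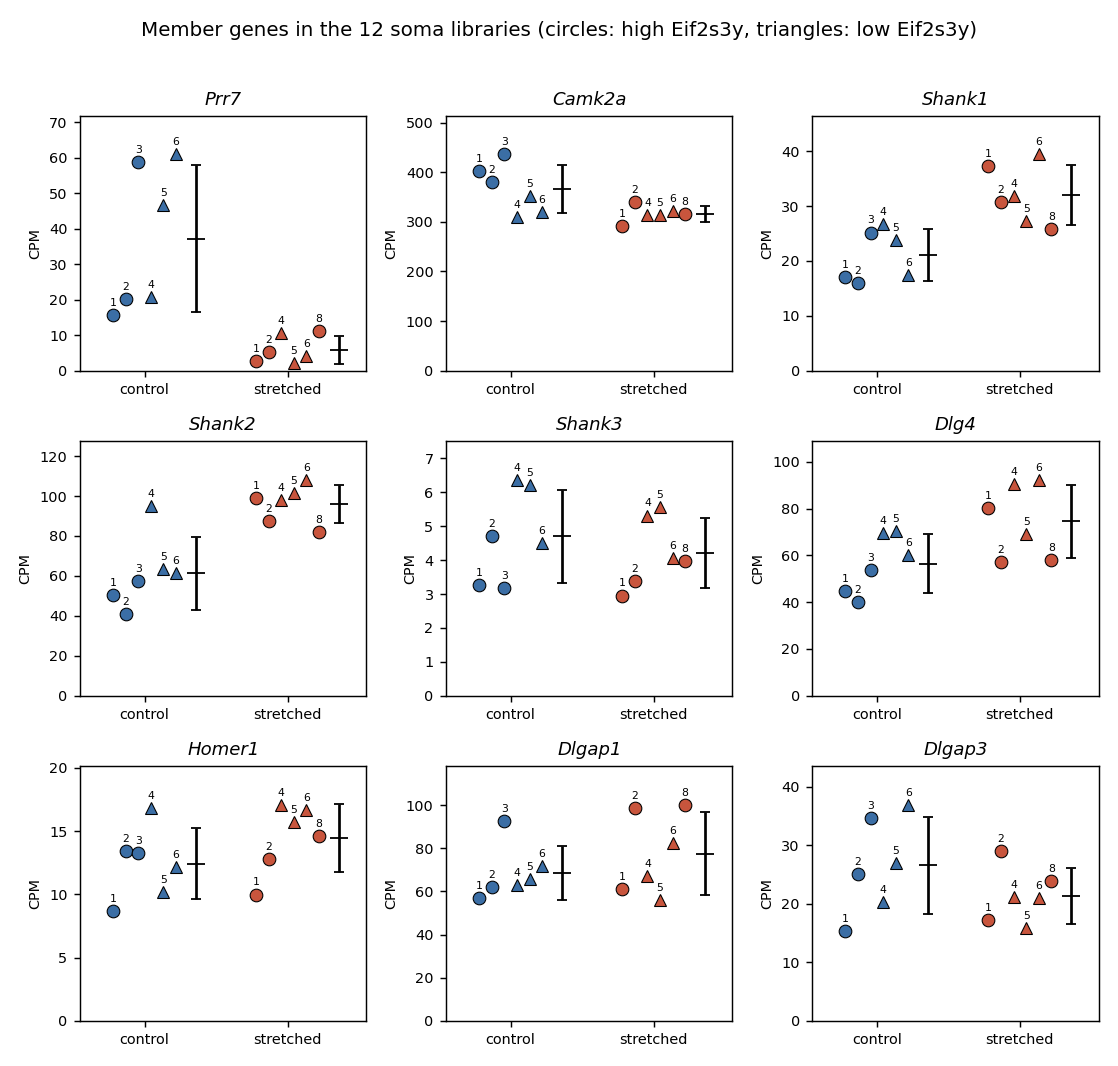
CPM (y axis, from 0) of the 9 genes in each soma library, control in blue and stretched in red, with replicate numbers; circles are the high-Eif2s3y set and triangles the low-Eif2s3y set, and the bars give mean and SD (n = 6). Prr7 is the gene whose groups do not overlap, and for Shank2 control replicate 4 lies among the stretched libraries at 94.9 CPM.

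The median log2 fold change was 0.13 over the members and -0.03 over all genes tested.

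Without control soma replicate 4, the log2 fold change was -2.83 for Prr7, -0.31 for Camk2a, 0.63 for Shank1 and 0.76 for Shank2. Within the high-Eif2s3y set these were -2.33, -0.36, 0.69 and 0.85, and 4637 of the 15867 genes tested passed edgeR's test. Within the low-Eif2s3y set they were -2.98, -0.08, 0.51 and 0.46, and no gene of the 15718 tested passed edgeR's test there (2739 had an unadjusted p under 0.05). The low set holds control soma replicate 4, and the part of that library in this count was not tested. Directions of all 9 members were alike in both Eif2s3y sets, but several changes lay within 1 SE of 0, where a shared sign tells little. These were Dlgap1 (0.01, SE 0.16), Camk2a (-0.08, SE 0.10) and Shank3 (-0.22, SE 0.24) in the low set. In the high set they were Homer1 (0.08, SE 0.21), Dlgap3 (-0.10, SE 0.30) and Shank3 (-0.11, SE 0.26). The share of all genes with alike directions was not computed.

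**Figure D2:**
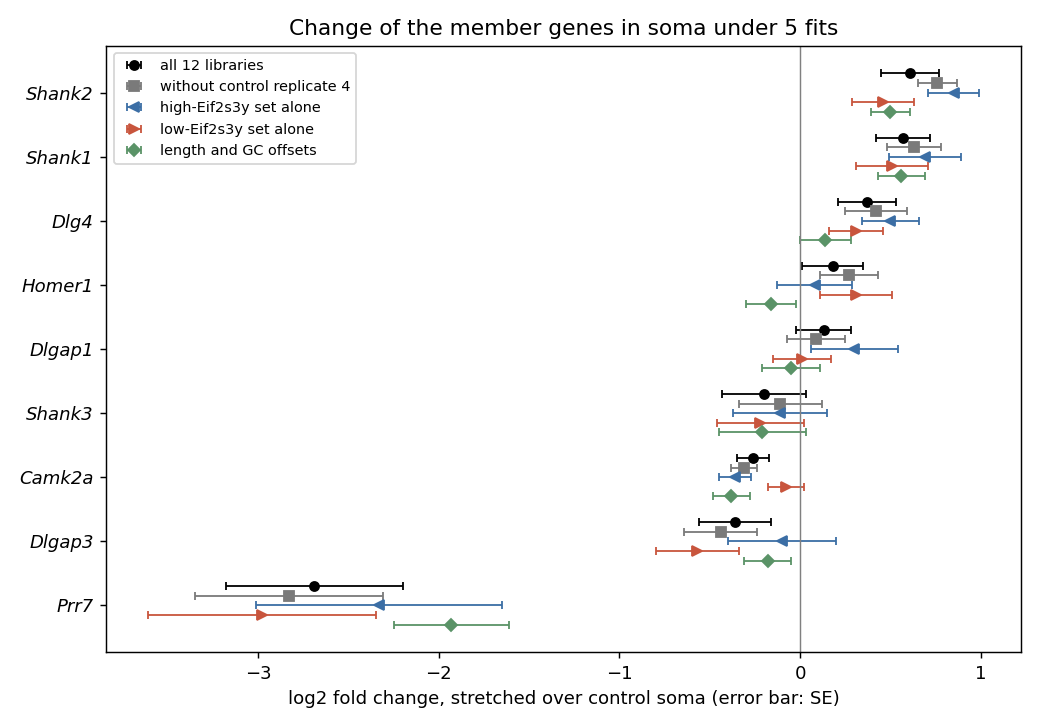
Log2 fold change of each member in stretched over control soma (x axis; error bars are SE) in 5 fits, with genes on the y axis. Prr7 lies between -2.98 and -1.93 in all 5, and Homer1 and Dlgap1 change sign with length and GC offsets.

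Change in soma went along with transcript length and GC content over all genes. Across 15619 genes with a reference transcript, the log2 fold change had a Spearman rho of 0.457 with length and of -0.266 with GC content, given as a description because genes share the same libraries. The 57 genes of at least 65% GC had a median log2 fold change of -0.51, those under 1500 bases -0.36 and those over 6000 bases 0.24. Prr7 (1359 bases, 69.0% GC) belongs to the first 2 classes, and Shank1 (9826 bases), Shank2 (8988), Shank3 (7365), Dlgap1 (7173) and Dlg4 (6326) to the last.

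With offsets from smooths of length and GC content, the Prr7 log2 fold change was -1.93 (SE 0.32), that of Shank1 0.56, Shank2 0.50, Dlg4 0.14, Camk2a -0.38 and Dlgap3 -0.18. Homer1 and Dlgap1, near 0 without offsets, stood at -0.16 and -0.05. Neither neighbour of Prr7 passed the test in soma: the log2 change of Grk6 was -0.26 (SE 0.13; adjusted p = 0.15 by edgeR) and that of Dbn1 0.04 (SE 0.07; adjusted p = 0.67 by edgeR).

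**Figure D3:**
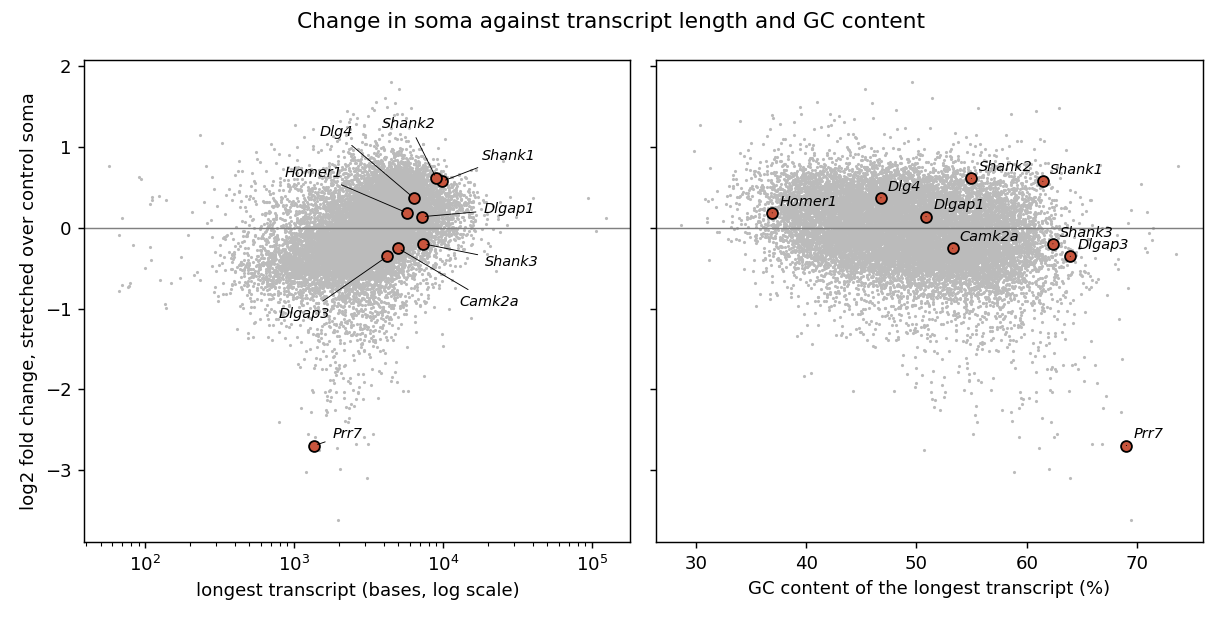
Log2 fold change in stretched over control soma (y axis) against the length of the longest transcript (left, log scale, bases) and its GC content (right, %), with every tested gene in grey and the members in red. Prr7 lies at 1359 bases and 69.0% GC, at the lower end of the changes, and Shank1 and Shank2 lie among the longest transcripts.

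The 5 genes named next had soma profiles nearest to that of Prr7, by the root mean square difference of centred log2(CPM + 1) over the 12 soma libraries among 9311 genes whose soma mean reached 10 CPM. They were Ybx1 (difference 0.428), which encodes an RNA-binding cold-shock protein, Cnih2 (0.53), an AMPA receptor auxiliary subunit, Bag1 (0.566), an Hsp70 co-chaperone, Fam69b (0.618) and Mlycd (0.64), malonyl-CoA decarboxylase. The median difference over all genes compared was 1.48. CPM in this paragraph were also scaled by TMM, whereas those of the members were not. Ybx1 was at 255 ± 172 CPM in control and 54.5 ± 18.7 in stretched soma, and Cnih2 at 157 ± 63.9 and 39 ± 20.6 (SD, n = 6 each). The longest transcripts of the 5 genes had 52.1% to 62.3% GC. Those of Ybx1, Cnih2, Bag1 and Fam69b had 1628, 1343, 1348 and 1622 bases and that of Mlycd 2933, against 1359 in Prr7.

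The same soma contrast was read for 83 other postsynaptic genes in 7 lists, by edgeR's quasi-likelihood test at a Benjamini-Hochberg adjusted p of 0.05. Over all 15632 genes tested, 11.2% were higher and 13.9% lower in stretched soma, with a median log2 fold change of -0.03, and no test compared a list with the other genes. Of 27 other postsynaptic density scaffold and signalling genes, 5 rose and 2 fell by that test, with a median log2 fold change of 0.02. Tanc1 (0.80, SE 0.18) and Lrrc7, which encodes densin (0.58, SE 0.15), rose, and Dlgap4, of the same family as 2 members, fell by 0.36 (SE 0.09). Baiap2, encoding IRSp53, fell by 0.26 (SE 0.09). Of 5 CaMKII subunits and inhibitors, Camk2d (0.79) and the inhibitor Camk2n1 (0.55) rose, and the inhibitor Camk2n2 (-0.58) and Camk2g (-0.27) fell. Camk2b, the partner subunit of Camk2a, had a log2 fold change of 0.13 and did not pass. The ratio of Camk2a to Camk2b counts was 0.567 ± 0.0408 in control and 0.440 ± 0.0540 in stretched soma (SD, n = 6 each). It was not compared with the ratios of gene pairs at large.

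Of 12 postsynaptic adhesion genes, 7 rose and 1 fell, with a median log2 fold change of 0.38: Nlgn3 (neuroligin 3; 0.76, SE 0.15) and Slitrk1 (0.62, SE 0.14) rose and Lrrtm1 fell by 0.33 (SE 0.08). Of 12 glutamate receptor genes, 3 rose and none fell by the edgeR test, with a median of 0.28; Gria2, an AMPA receptor subunit, rose by 0.39 (SE 0.09). Of 12 spine actin genes, 3 rose, among them Abi2 (0.67) and Synpo, encoding synaptopodin (0.51), and Add2 fell by 0.23.

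Of 9 inhibitory postsynapse genes, 3 rose and none fell by the edgeR test, with a median log2 fold change of 0.32. Of 3 markers of GABAergic neurons, Gad1 (0.50) and Slc32a1 (0.80) rose and Gad2 (0.01) did not pass. Their summed level was 139 to 234 CPM in control and 188 to 251 CPM in stretched soma. Of 5 general neuron markers, Tubb3 (-0.27) and Rbfox3 (-0.90) fell by the edgeR test and none rose. Of 4 markers of glutamatergic neurons none passed, and their summed level was 744 to 868 CPM in control and 697 to 834 in stretched soma. The 5 microglia markers summed to 21.8 to 44.4 CPM in control and 14.5 to 21.4 in stretched soma. Of them, C1qa fell (-1.35) and the others did not pass, with Cx3cr1 at 0.01. The part of these markers in the gene values was not tested. Of 6 other dendritic mRNAs, Kif5a rose (0.35) and Nrgn, encoding neurogranin, fell by 0.80 (SE 0.17).

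The counts of the lists moved with single libraries and with the fit. With 1 soma library left out, the higher genes numbered 4 to 8 of 12 for adhesion, 1 to 7 of 12 for receptors, 3 to 9 of 27 for other scaffolds and 0 to 2 of 5 for CaMKII genes. They numbered 3 to 5 of 12 for spine actin, 1 to 4 of 9 for the inhibitory postsynapse and 0 to 2 of 6 for dendritic mRNAs. The top of each range came without control soma replicate 4, though not there alone in every list, and lower counts came with other libraries of either condition left out. The lower genes numbered 1 to 3 for other scaffolds, 0 to 2 for CaMKII genes and 0 to 1 for spine actin and receptors.

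With length and GC offsets, 4 adhesion genes were higher and 0 lower, and 1 receptor gene was higher and 0 lower. Other scaffolds gave 3 higher and 2 lower, CaMKII genes 0 and 1, spine actin 5 and 2, the inhibitory postsynapse 2 and 1, and dendritic mRNAs 0 and 0. Within the low-Eif2s3y set none of the 83 genes passed by edgeR.

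**Figure D4:**
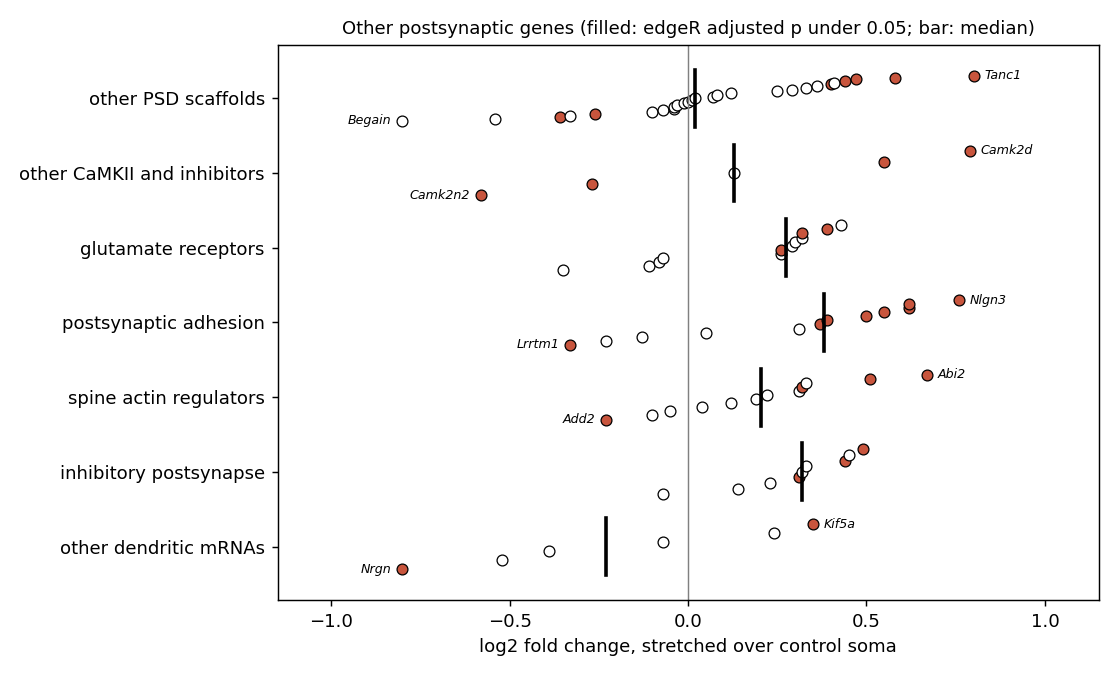
Log2 fold change in stretched over control soma (x axis) of the genes of 7 postsynaptic lists (y axis), each point a gene, filled where the edgeR adjusted p was under 0.05, with the median as a bar. The medians run from -0.23 in other dendritic mRNAs to 0.38 in adhesion genes.

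In axonal libraries the members were found in some libraries and not in others. Of 45 pairs of member and library in control axon, 19 held counts, and of 54 pairs in stretched axon 22 did. Each library held 1 to 8 of the 9 members. Shank2 and Dlgap1 were found in 7 of 11 axonal libraries, Camk2a and Shank1 in 6, Dlg4 in 5, Shank3 and Homer1 in 3 and Prr7 and Dlgap3 in 2. Genes were classed by their mean CPM over the soma libraries of both conditions. Genes of 30 to 100 CPM in soma were found in a median of 5 of 11 axonal libraries, with quartiles of 4 and 7, a class that holds Shank2, Dlg4 and Dlgap1. Genes of 10 to 30 CPM, with Prr7, Shank1, Homer1 and Dlgap3, had a median of 3 and quartiles of 2 and 4. Those of 3 to 10 CPM, with Shank3, had a median of 1 and quartiles of 1 and 3, and those of 100 to 1000 CPM, with Camk2a, a median of 9 and quartiles of 7 and 10. Against its class, Camk2a was thus found in fewer libraries than the lower quartile and Shank1 in more than the upper one, and the other 7 lay within the quartiles. For 2 members this depends on the pooling of conditions. The control soma mean of Prr7 (37.2 CPM) lies in the class of 30 to 100 CPM, where Prr7 would be below the lower quartile. The stretched soma mean of Shank1 (32.05 CPM) lies in that class too, where Shank1 would be within the quartiles.

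Where a member was found in an axonal library, its level could reach or pass that of soma. Homer1 was at 41.1 and 18.3 CPM in control axon replicates 1 and 5 and at 77.9 CPM in stretched axon replicate 8, in each above the highest soma library (17.1 CPM), and had 0 counts in the other 8. Dlgap1 was at 131, 0, 0, 65.8 and 166 CPM in control axon and at 64.1, 0, 26.2, 0, 35.1 and 0.253 CPM in stretched axon. Both groups ran from 0 upward and overlapped.

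Camk2a, known from dendrites, was at 0, 387, 0, 88.7 and 0 CPM in control axon and at 0, 0, 283, 323, 73.8 and 81.5 CPM in stretched axon. Shank2 was at 0, 0, 0.838, 34.8 and 11.4 CPM in control axon and at 0.0381, 0, 0, 0.946, 56.1 and 92.7 CPM in stretched axon. Shank1 was at 0, 0, 5.07, 2.56 and 2.18 CPM in control axon and at 0, 0, 0, 51.8, 0.0521 and 0.556 CPM in stretched axon. For these 3 genes the groups overlapped from 0 upward.

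**Figure D5:**
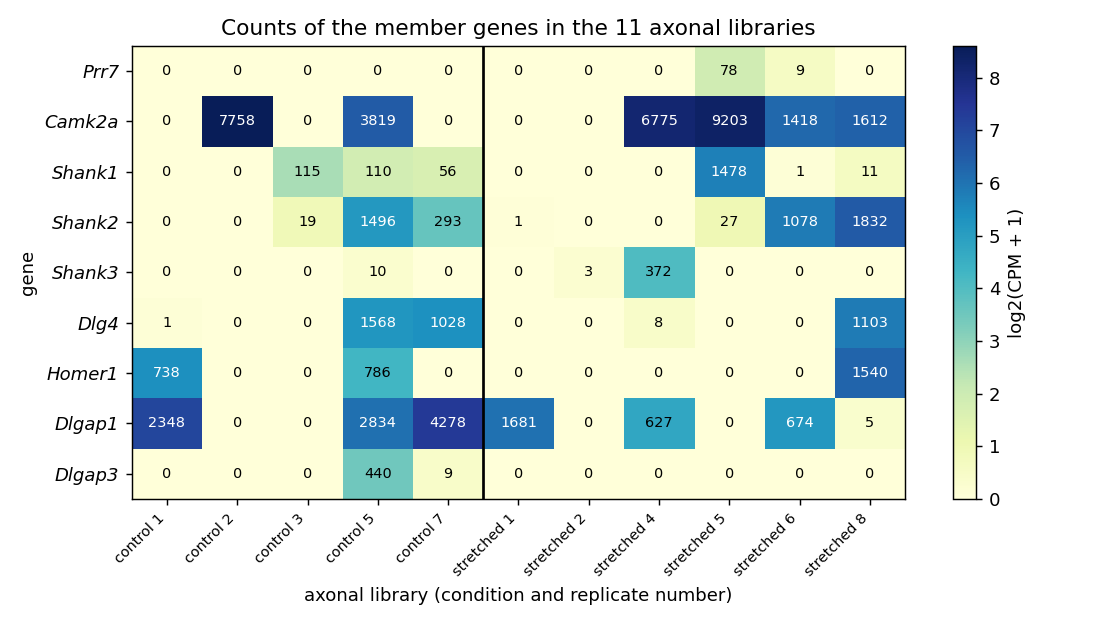
Counts of the 9 members (rows) in the 5 control and 6 stretched axonal libraries (columns), written in each cell and coloured by log2(CPM + 1). Most cells hold either 0 or a large count, up to 9203, and control replicate 5 holds 8 of the 9 members.

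In axonal libraries no difference between stretched and control passed the test. Only Camk2a, Shank1, Shank2 and Dlgap1 passed the filter on low counts, and 0 of those 4 passed by edgeR (0% of 4947 genes tested; 46 genes, 0.93%, had an unadjusted p under 0.05, none a member). The log2 fold changes were 0.49 (SE 2.72) for Camk2a, 2.16 (SE 2.47) for Shank1, 1.35 (SE 2.72) for Shank2 and -1.87 (SE 2.63) for Dlgap1, each with an edgeR adjusted p of 1.00. With SEs over 2 on the log2 scale, only a difference of many fold was detectable. DESeq2 called 18 genes and limma voom 10, and neither called a member. Prr7 had 78 and 9 counts in stretched axon replicates 5 and 6 and 0 in every other axonal library, and Dlgap3 had 440 and 9 counts in control axon replicates 5 and 7 and 0 elsewhere.

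Between axon and soma in control cultures, 2 of the 9 members (Prr7, Shank3) passed edgeR's test as lower in axon, where 34.4% of 14728 genes did. Both entered the fit through the soma libraries, where they are high, so their levels are given without a p. Prr7 had 0 counts in all 5 control axon libraries. Its soma mean of 37.2 ± 20.7 CPM (SD, n = 6) was at least 292 times a floor of 3 counts per library, which averaged 0.127 CPM. That floor covers counting error only, not the loss of genes from axonal libraries. Genes of 10 to 30 CPM over the soma libraries of both conditions, the class of Prr7, were found in a median of 3 of 11 axonal libraries. The control soma mean of Prr7 alone lies in the class of 30 to 100 CPM, with a median of 5. Shank3 had 10 counts in control axon replicate 5 and 0 in the other 4, a log2 difference of -6.41 (SE 1.25), against 3.19 to 6.37 CPM in soma. The other 7 members had log2 fold changes from -3.69 to -0.18 and did not pass. In 6 members (Prr7, Shank1, Shank2, Shank3, Dlg4 and Dlgap3) all 5 control axon libraries lay below every control soma library, as they did in 40.6% of genes tested, while Camk2a, Homer1 and Dlgap1 overlapped. Without control axon replicate 5, the deepest library at 43048953 counts, Dlgap3 passed too.

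In stretched cultures, 1 of the 9 members (Dlgap3) passed as lower in axon, where 28.4% of 14466 genes did, and it too entered the fit through soma. Dlgap3 had 0 counts in all 6 stretched axon libraries and 21.4 ± 4.75 CPM (SD, n = 6) in soma. That soma mean was at least 153 times a floor averaging 0.139 CPM, which covers counting error only. By the mean over the soma libraries of both conditions, Dlgap3 is in the detection class of 10 to 30 CPM, with a median of 3 of 11 axonal libraries. In 2 members (Dlgap3 and Dlg4) all 6 stretched axon libraries lay below every stretched soma library, as they did in 34.6% of genes tested, and the other 7 overlapped. Prr7 stood at a log2 difference of -3.87 (SE 1.67; adjusted p = 0.13 by edgeR), with its soma mean at 5.91 CPM. The soma libraries of both comparisons are those on which the members were chosen. Single axonal libraries decided further calls: without stretched axon replicate 4 Shank3 passed, without replicate 5 Prr7 and Shank1, and without replicate 8 Dlg4 and Homer1. Whether axon and soma differ more in one condition than in the other was not tested.

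Several other scaffold genes were also at 0 in axonal libraries. Of the 27, 8 were lower and 1 higher in control axon, and 6 were lower and none higher in stretched axon by edgeR, no more than the shares of 34.4% and 28.4% over all genes give. Git1, an adaptor that forms a signalling complex with Pix exchange factors, was the higher one (log2 difference 1.77, SE 0.52; adjusted p = 0.0176 by edgeR). Cnksr2, a scaffold of the synaptic Ras pathway, had 0 counts in all 11 axonal libraries. Its soma mean was at least 270 times the floor in control and 174 times in stretched cultures, again with counting error alone covered. The median log2 fold change over the 27 was -2.22 in control and -1.94 in stretched cultures, against -1.40 and -1.13 over all genes tested.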

How the data were processed

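Polyadenylated RNA was sequenced from the 23 libraries. The authors deposited whole-number counts per Ensembl gene, 1 table per library. Per the submitters' processing notes the tools were FastQC 0.11.9, fastp 0.20.1, STAR 2.7.08a, HTSeq 0.13.5 and MultiQC 1.12, with mm10. The annotation, the strand setting and the use of the molecular identifiers that the labels' protocols mention are not given in the sources used here. Summary rows of the tables (ambiguous reads, at 5.25% to 7.48% of gene counts, and multimapped reads, at 6.47% to 17.7%) stayed out of totals and tests.

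CPM are counts scaled to a library total of 1000000 gene counts, with TMM scaling as well for the genes nearest to Prr7. CPM per kb divide by the exon union of GENCODE M21. Groups came from the labels. Each comparison was fitted on its own groups with edgeR 4.0.16 (filterByExpr with a minimum count of 10, TMM scaling, quasi-likelihood test, Benjamini-Hochberg adjustment over all genes tested, threshold 0.05), in R 4.3.3 and after tests on simulated data. Other fits used total counts, RLE factors, no filter, DESeq2 1.42.0, limma 3.58.1 voom, a replicate block, all groups in 1 fit, the Eif2s3y sets, offsets from smooths (mgcv 1.9.3) of length and GC content, and each library left out. The floor of a count of 0 is 3 counts and covers counting error only.

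The members and the other lists were chosen with earlier results of these data known. All members are named; of each other list, up to 2 genes with the highest and 2 with the lowest log2 fold change among those passing in soma, and up to 1 of each for axon against soma (only some of the latter are described), and the 5 genes nearest to Prr7. Some genes that this rule names are not reported here.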

Additional observations from a re-analysis of the deposited data

Results flagged for a closer look

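In 8 of the 34 pairs of member and group whose libraries differed, all 8 of them axonal, a single library lay far from the others by its gap to the next library relative to the range of its group. Chance flags about 1 in 20 groups, and genes at 0 in most libraries of a group meet this more readily. Prr7 stood at 2.73 CPM in stretched axon replicate 5, against 0.469 CPM in the next library. Shank1 stood at 51.8 CPM in the same library, against 0.556. Shank3 stood at 15.5 CPM in stretched axon replicate 4, against 0.183. Dlg4 (55.8 CPM, next 0.334) and Homer1 (77.9 CPM, next 0) stood apart in stretched axon replicate 8. In control axon, Camk2a was at 387 CPM in replicate 2 against 88.7 in the next library. Control axon replicate 5 stood apart for Shank3 at 0.232 CPM, against 0, and for Dlgap3 at 10.2 CPM, against 0.35. No soma library was flagged for a member.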

How the results depend on the processing

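For stretch in soma, where the members carry no test, 3929 genes passed with all 12 libraries, 2666 to 6072 with 1 library left out (the most without control soma replicate 4), 2464 with length and GC offsets, and 0 with all 4 groups in 1 fit or within the low-Eif2s3y set alone. Within the high-Eif2s3y set alone 4637 passed, and 5304 with the Eif2s3y sets as a covariate. For stretch in axon, 0 members passed and 2 with all 4 groups in 1 fit (Prr7 and Dlgap3), and 0 to 0 with 1 library left out. For axon against soma in control, 2 passed, 4 by DESeq2, 9 by limma voom and 2 to 3 with 1 library left out. In stretched cultures 1 passed, 2 by DESeq2, 8 by limma voom and 1 to 3 with 1 library left out.

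A replicate block, on libraries whose number occurs in both groups, gave 3227 genes for stretch in soma, and 0 members for stretch in axon, 2 for axon against soma in control and 6 in stretched cultures; the lower scaffold genes in soma went from 2 to 0. The numbers were not taken as pairs: same-numbered soma libraries correlated above 0.1 in 4 of 5 pairs, and in the other comparisons in 0 pairs.

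Over all genes, 0 passed for stretch in axon, 18 by DESeq2, 10 by limma voom and 3870 with all 4 groups. For axon against soma in control 5196 passed, 10714 without a filter, 9798 by limma voom and 8151 without control axon replicate 5. In stretched cultures 4234 passed, 10931 without a filter, 10084 by limma voom, 7687 with the block and 6499 without stretched axon replicate 8. The causes were not tested. The Prr7 change in soma ranged from -3.07 to -1.93 over 25 fits. Prr7 was chosen on this change and the fits share the same soma libraries, so its kept sign is no independent support. Homer1 and Dlgap1 kept their sign in 24 of the 25 fits. Counting detection above 3 counts left 18 of 45 pairs in control axon and 19 of 54 in stretched axon. At 16369153 counts or more per library, the floor of a count of 0 was at most 0.183 CPM.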
